A study of Rattus norvegicus with 30 samples.

Results

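Of 35 rat genes of fatty acid oxidation and lipid droplets, 34 were found by symbol in the table of normalized counts, which holds 32883 genes, and 33 had enough reads to be tested. The genes were taken by name: the carnitine shuttle, the mitochondrial and peroxisomal beta oxidation enzymes, and the coats, lipases, synthesis enzymes and carriers around the lipid droplet. Acaa1a, a peroxisomal thiolase, was not matched, and Plin3, a droplet coat protein, was listed at normalized counts of 0 to 3.43 over the 30 libraries and did not pass the filter on low values.

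Rat primary cortical neuron cultures, from embryos of Sprague Dawley rats, were transduced on day 5 in vitro with AAV9 carrying a human α-synuclein with 3 glutamate to lysine changes under the CAG promoter (αSyn 3K, here 3K) or with AAV9 made from the entry vector without insert (EV). RNA was taken at day 6, day 12 and day 19 after transduction, and each treatment has 5 libraries per day. The titles of all 30 libraries, 3K and EV alike, also carry the term PBS, which the sources used here do not explain. The heading of the deposited values names a PFF model, and the relation of these libraries to that model was not examined. The CAG promoter is not limited to neurons, and the sources do not say whether the libraries of a group came from separate cultures, so p-values measure the spread between these libraries, which may be technical. Recovered reads per library ranged from 4747019 to 7035869. The αSyn 3K vector was at a normalized count of at least 3801 in every 3K library and at most 249.8 in every EV library. In 3K libraries it rose with the days, from 3801 to 4789 at day 6, to 8080 to 9302 at day 12 and 22901 to 28883 at day 19. The values are read counts per gene divided by a size factor per library, called normalized counts here. They are not divided by gene length, so levels are compared between groups for a gene and not between genes.

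Fatty acids that enter a cell are bound by carrier proteins and activated to acyl-CoA, and then either joined to glycerol and stored as triglyceride in lipid droplets or moved into mitochondria by the carnitine shuttle. In the mitochondrial matrix each turn of beta oxidation runs through a dehydrogenase, a hydratase, a second dehydrogenase and a thiolase, and electrons from the first step pass through the electron transfer flavoprotein to the respiratory chain. In brain, beta oxidation is known mainly from astrocytes, while neurons carry little of it and can pass fatty acids on to glia.

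In EV cultures 25 of the 33 tested genes rose between day 6 and day 19 and 5 fell, where 32.9% of all tested genes rose and 32.2% fell, with the largest rises in Cd36, Cpt1a and Decr1 and the largest falls in Fabp5 and Plin2. Cd36 was close to the floor at day 6, and its rise rests on few reads. Against EV, 1 gene was called in 3K cultures at day 19, Acad9, which was lower by 0.18 on the log2 scale, where 7.86% of all tested genes were called. This call was lost with equal totals, in a fit to the day 19 groups alone and without any 1 of 7 of the 10 day 19 libraries. No gene was called at day 6 or day 12.

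The change with culture age was taken first in EV libraries. A single limma fit over all 12911 tested genes and 6 groups was used, on log2(normalized count + 1), with p-values adjusted over all genes by the Benjamini-Hochberg method and a threshold of 0.05. From day 6 to day 19, 65.1% of all tested genes passed this threshold (32.9% higher, 32.2% lower), against 25 higher and 5 lower of 33 here. The median log2 fold change of the 33 genes was 0.47, beside 0.001 for all genes tested. In 28 of the 33 genes the 5 libraries of day 19 did not overlap with the 5 of day 6, a separation found in 47.7% of all tested genes. Not called were Slc25a20, Echs1 and Lipe. For day 12 over day 6, 18 genes were higher and 5 lower (44.5% of all tested genes were called, 23.3% higher and 21.2% lower). For day 19 over day 12, 20 genes were higher and 3 lower (45.4% of all tested genes, 23.6% higher and 21.7% lower). The 3K libraries, which share no library with EV, gave 24 higher and 5 lower from day 6 to day 19, where 63.4% of all tested genes were called (32.2% higher, 31.3% lower), and 25 genes without overlap between the days, beside 47% of all tested genes. In both kinds of culture 24 genes were called higher and 5 lower, and Dgat1 was called higher in EV alone, with an adjusted p of 0.13 in 3K and 0.047 in EV by limma.

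**Figure D1:**
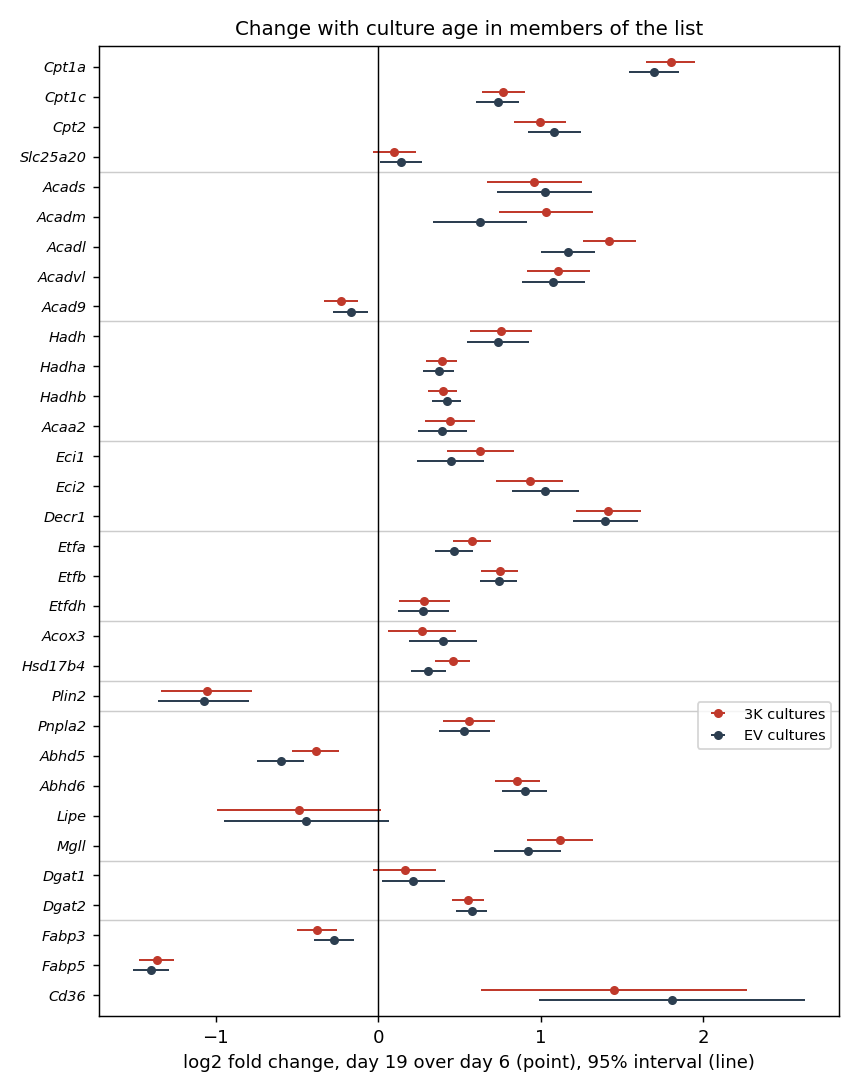
Log2 fold change of day 19 over day 6 for 32 of the tested genes, ordered by role, in 3K cultures (red) and EV cultures (dark), with points for the estimate and lines for the 95% interval of the limma fit. Cpt1a, Decr1 and Acadl lie farthest to the right among the genes with narrow intervals, and Fabp5 and Plin2 lie below -1. Echs1 is left out because its interval is far wider than the axis.

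The 20 genes of mitochondrial oxidation and the carnitine shuttle held most of the rises: 17 rose, 1 fell (Acad9) and 2 were not called in 3K, with a median log2 fold change of 0.75, and the counts were the same in EV, with a median of 0.68. These 20 include Cpt1c, a form found in the endoplasmic reticulum. Of 11 tested genes of droplets, lipases, triglyceride synthesis and carriers, 5 rose and 4 fell in 3K with a median of 0.16, and 6 rose and 4 fell in EV with a median of 0.22. Of all tested genes 32.2% rose and 31.3% fell in 3K, and 32.9% rose and 32.2% fell in EV. The falls among these 11 genes were near that share, and the rises were above it. In either direction 81.8% of the 11 were called in 3K and 90.9% in EV, beside 63.4% and 65.1% of all tested genes.

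The carnitine shuttle imports long-chain acyl groups, and its first enzyme, carnitine palmitoyltransferase 1A (Cpt1a, ENSRNOG00000014254), is the main point of control of beta oxidation. In 3K libraries Cpt1a was at normalized counts of 192, 165, 171, 199 and 191 at day 6, 382, 403, 394, 407 and 364 at day 12 and 598, 656, 754, 528 and 687 at day 19. In EV libraries it was at 199, 179, 208, 189.8 and 169.8 at day 6, 402, 428, 395, 412 and 377 at day 12 and 635, 629, 561, 575 and 679 at day 19. Every library of a later day was above every library of the earlier day in both kinds of culture. Day 19 over day 6 was, on the log2 scale, 1.80 (SE 0.07, limma adjusted p = 6.9e-20) in 3K and 1.70 (SE 0.07, adjusted p = 3.1e-19) in EV, a 3.48-fold and a 3.24-fold rise.

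Cpt2, which returns the acyl group to coenzyme A inside the mitochondrion, had normalized counts of 182, 183, 189, 150.3 and 184 in 3K and 206, 187, 197, 184 and 170.5 in EV at day 19. At day 6 it had 83.1, 88.2, 102, 79.5 and 90.6 in 3K and 102, 81.9, 91.8, 87.4 and 80.6 in EV. All libraries of day 19 were above all libraries of day 6, and most of the rise fell before day 12, at 0.87 of 1.08 on the log2 scale in EV (adjusted p = 1.7e-13 for day 19 over day 6). Cpt1c, the brain form found in the endoplasmic reticulum, with little transferase activity, rose after day 12 in EV and in both steps in 3K. In EV it changed by 0.08 from day 6 to day 12 (adjusted p = 0.30) and by 0.65 from day 12 to day 19 (adjusted p = 6.4e-10), with means of 223 at day 6, 236 at day 12 and 371 at day 19. Slc25a20, the carrier that exchanges acylcarnitine for carnitine across the inner membrane, averaged 497 in 3K and 489.6 in EV at day 19, with a log2 fold change over day 6 of 0.10 in 3K (adjusted p = 0.18) and 0.14 in EV (adjusted p = 0.058). Of the 4 genes listed under the shuttle, 3 passed the threshold: Cpt1a, Cpt2 and Cpt1c, the form found in the endoplasmic reticulum.

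Of the 5 acyl-CoA dehydrogenases, which catalyse the first oxidation at different chain lengths, 4 rose and Acad9 fell. The long-chain enzyme Acadl (ENSRNOG00000012966) was at 311, 292, 287, 267 and 341 in 3K and 259.7, 279, 268, 232 and 245 in EV at day 19, against 107, 107, 106, 98.8 and 137 in 3K and 113, 109.8, 119, 119 and 106 in EV at day 6. Its lowest library of day 19 was above its highest of day 6 in both kinds of culture, and day 19 over day 6 was 1.42 on the log2 scale (SE 0.08, adjusted p = 3.0e-16) in 3K and 1.17 (SE 0.08, adjusted p = 3.8e-14) in EV. The very-long-chain enzyme Acadvl and the short-chain enzyme Acads rose by 1.11 and 0.96 in 3K, and by 1.08 and 1.02 in EV. The medium-chain enzyme Acadm rose by 1.03 in 3K and by 0.63 in EV, and the difference between these rises, 0.41 (95% interval -0.004 to 0.82), was not past the threshold (adjusted p = 0.39). Acad9 fell, with a log2 fold change of -0.23 in 3K (adjusted p = 0.00028) and -0.17 in EV (adjusted p = 0.0053).

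The promoter of Acadvl is shown because it was the only one of the 27 matched promoters with more than 1 copy of AGGTCA, the hexamer that nuclear receptors such as the PPARs bind, which was searched on both strands. The window runs from 250 bases before to 50 after the RefSeq start of the gene on build GRCr8, chr10:55236656-55236955 on the minus strand, and the hexamers are in capitals.
Acadvl: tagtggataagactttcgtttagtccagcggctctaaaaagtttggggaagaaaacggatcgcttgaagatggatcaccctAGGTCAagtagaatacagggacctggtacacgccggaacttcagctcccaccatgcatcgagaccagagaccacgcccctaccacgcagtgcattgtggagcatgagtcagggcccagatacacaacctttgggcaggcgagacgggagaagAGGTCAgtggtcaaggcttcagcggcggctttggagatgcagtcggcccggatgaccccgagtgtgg
The hexamer was present in 7 of 27 promoters (25.9%), beside 15.7% of 27457 rat promoter windows of the same length. The direct repeat of this hexamer with 1 base between the copies, known as the PPAR-RXR element, was in 0 of the 27, beside 0.0583% of all windows. The element TGACGTCA, known from genes that answer to cyclic AMP, was in 2 (Acadm and Acox3, 7.41%), beside 1.91% of all windows. TCACNCCAC, an element of SREBP, was in 0, beside 1.13%, and the element of TFEB was in 0, beside 0.277%. These counts describe letters in the windows and were not set against the changes in expression.

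Of the 5 genes of the later steps, 4 rose in both kinds of culture, with a median log2 fold change of 0.44 in 3K and 0.40 in EV, beside 1.03 in 3K and 1.02 in EV for the 5 dehydrogenases. Hadh, the short-chain hydroxyacyl-CoA dehydrogenase, rose by 0.76 in 3K and 0.74 in EV. Acaa2, the thiolase of the matrix, rose by 0.44 in 3K and 0.40 in EV. The mitochondrial trifunctional protein joins 3 of the 4 steps for long chains and is built from the α subunit Hadha and the β subunit Hadhb, which are divergent neighbours. Hadha averaged 1056 in 3K and 1045 in EV at day 19, and 804 in 3K and 808 in EV at day 6, a rise of 0.39 in 3K and 0.37 in EV (adjusted p = 3.0e-08). Hadhb averaged 1234 in 3K and 1281 in EV at day 19, and 937 in 3K and 957 in EV at day 6, a rise of 0.40 in 3K and 0.42 in EV (adjusted p = 3.6e-10). For both genes all libraries of day 19 were above all libraries of day 6.

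The promoter that the subunits share is shown because these genes changed by nearly the same amount, although Acaa2 also rose by a similar amount. A part of the shared window in these changes was not tested. The Hadhb window is chr6:31907451-31907750 on the minus strand of GRCr8, and the capitals mark the 200 bases, chr6:31907551-31907750, that are also part of the Hadha window on the plus strand.
Hadhb: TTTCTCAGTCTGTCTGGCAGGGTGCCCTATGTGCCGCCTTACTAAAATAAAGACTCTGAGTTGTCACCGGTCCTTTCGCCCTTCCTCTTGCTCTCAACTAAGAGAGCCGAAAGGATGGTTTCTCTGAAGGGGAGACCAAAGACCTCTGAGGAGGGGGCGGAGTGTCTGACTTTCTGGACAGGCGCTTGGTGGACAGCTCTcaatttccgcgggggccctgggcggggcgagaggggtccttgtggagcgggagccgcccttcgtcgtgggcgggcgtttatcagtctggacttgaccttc
No other pair of matched members had overlapping windows. Both promoters were chosen after the expression values had been seen. The windows of Acad9, Etfdh and Abhd5 overlapped that of a gene on the other strand on GRCr8 that is not among the 35, and the cDNA kit used does not keep the strand of the RNA.

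Enzymes needed for unsaturated fatty acids rose in all 3 cases. Decr1 (ENSRNOG00000008236), the dienoyl-CoA reductase, was at 188, 179.9, 243, 154 and 217 in 3K and 182, 182, 206, 179 and 211 in EV at day 19, against 81.3, 68.1, 79.0, 59.1 and 75.3 in 3K and 67.5, 75.8, 78.8, 67.4 and 71.0 in EV at day 6. No library of day 6 reached a library of day 19, and the rise was 1.42 (SE 0.10, adjusted p = 5.6e-14) in 3K and 1.40 (SE 0.10, adjusted p = 6.7e-14) in EV. Of the enoyl-CoA isomerases, Eci2 rose by 0.93 in 3K and 1.03 in EV, and Eci1 by 0.63 in 3K and 0.45 in EV. The flavoprotein subunits Etfb and Etfa rose by 0.75 and 0.58 in 3K and by 0.74 and 0.47 in EV, and their oxidoreductase Etfdh by 0.28 in both. The peroxisomal enzymes Acox3, an acyl-CoA oxidase, and Hsd17b4, the bifunctional protein, rose by 0.27 and 0.46 in 3K and by 0.40 and 0.31 in EV.

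**Figure D2:**
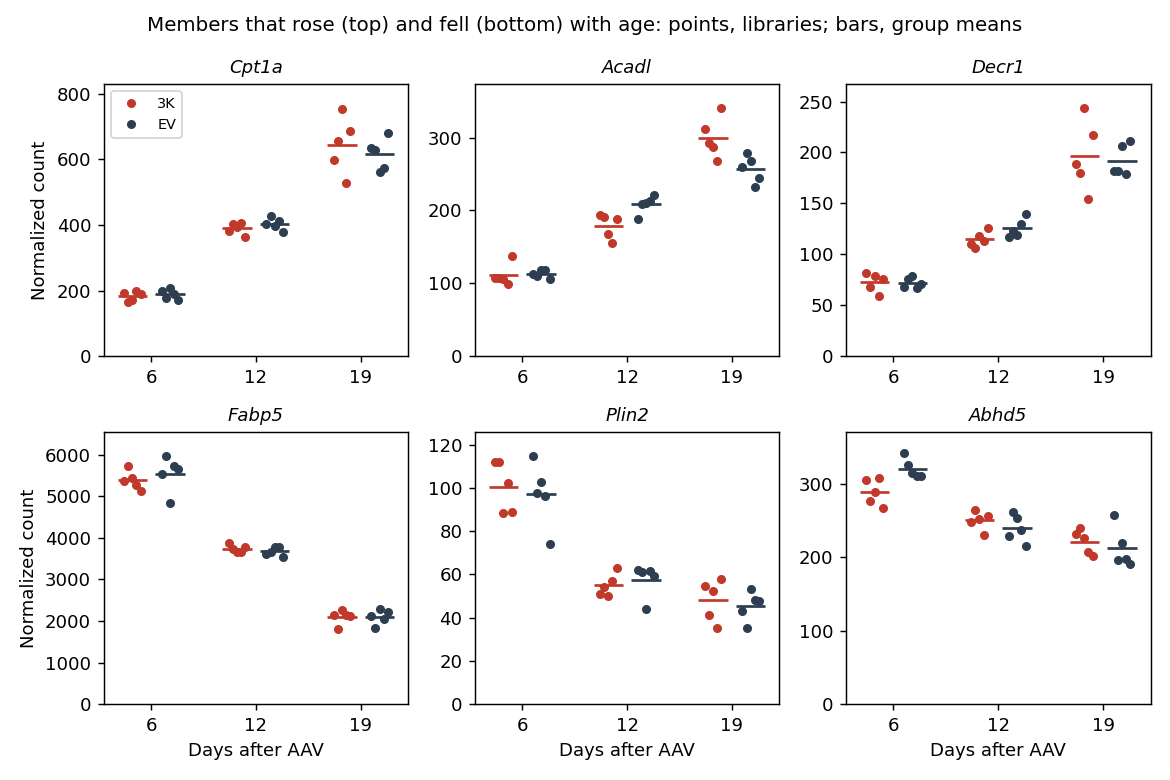
Normalized counts in every library (points) and group means (bars) for 6 genes, by days after AAV (6, 12, 19), 3K in red left of EV in dark. Cpt1a, Acadl and Decr1 climb and Fabp5 and Plin2 drop without overlap between day 6 and day 19. The 3K and EV points of a day overlap, except for Abhd5 at day 6, and for Acadl by few libraries at days 12 and 19. Abhd5 drops by less.

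Around the lipid droplet the directions were mixed. Plin2 (ENSRNOG00000007060), the coat protein that marks droplets in most tissues outside fat, was at 54.8, 41.1, 52.5, 35.4 and 58.0 in 3K and 43.3, 35.4, 53.1, 48.0 and 47.5 in EV at day 19, against 112, 112, 88.4, 102 and 88.7 in 3K and 115, 97.6, 103, 96.1 and 73.9 in EV at day 6. The groups of the 2 days did not overlap, with a log2 fold change of -1.06 in 3K (SE 0.14, adjusted p = 6.2e-08) and -1.07 in EV (SE 0.14, adjusted p = 4.2e-08). In EV most of the fall, -0.74, was before day 12.

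Among the lipases, Pnpla2 (adipose triglyceride lipase, the first enzyme of triglyceride breakdown), Abhd6 and Mgll (both of which cleave monoacylglycerols, the endocannabinoid 2-arachidonoylglycerol among them) rose, and Abhd5, the protein that activates Pnpla2, fell. Pnpla2 averaged 201 in 3K and 206 in EV at day 19, and 136 in 3K and 142 in EV at day 6, a rise of 0.56 in 3K and 0.53 in EV (adjusted p = 4.6e-07). Abhd6 averaged 472 in 3K and 517 in EV at day 19, and 260.5 in 3K and 277 in EV at day 6, a rise of 0.86 in 3K and 0.90 in EV (adjusted p = 4.5e-13). Mgll averaged 156 in 3K and 161 in EV at day 19, and 71.0 in 3K and 84.5 in EV at day 6, a rise of 1.12 in 3K and 0.92 in EV (adjusted p = 1.7e-09).

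Abhd5 (ENSRNOG00000000221) was at 232, 239, 226, 207 and 201 in 3K and 258, 196, 219, 198 and 190.1 in EV at day 19, against 305, 276, 289, 307 and 266 in 3K and 342, 325, 314, 309.6 and 311 in EV at day 6. The 2 days did not overlap, and the log2 fold change was -0.38 in 3K (adjusted p = 2.1e-05) and -0.60 in EV (adjusted p = 8.9e-09). Lipe, hormone-sensitive lipase, was low at 9.84 to 32.5 over all libraries, and its log2 fold change of -0.49 in 3K (adjusted p = 0.087) and -0.44 in EV (adjusted p = 0.12) was not called. Of the enzymes that make triglyceride, Dgat2 averaged 911 in 3K and 922 in EV at day 19, and 621 in 3K and 619 in EV at day 6. It rose by 0.55 in 3K and 0.57 in EV, with the step to day 12 past the threshold and the step after it not, and Dgat1 changed by 0.16 in 3K and 0.22 in EV.

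The fatty acid carriers held the largest fall among the 33 genes. Fabp5 (ENSRNOG00000049075), a cytosolic fatty acid binding protein abundant in the developing brain, was at 5374, 5718, 5429.8, 5274 and 5133 at day 6, 3877, 3729, 3666, 3661 and 3785 at day 12 and 2135, 1813, 2258, 2149.7 and 2116 at day 19 in 3K. In EV it was at 5542, 5973, 4840.1, 5717 and 5649 at day 6, 3609, 3658, 3777, 3791 and 3546 at day 12 and 2131, 1823, 2284, 2045 and 2215 at day 19. Each day lay below the one before it with no overlap, and day 19 over day 6 was -1.37 in 3K (SE 0.05, adjusted p = 2.3e-20) and -1.40 in EV (SE 0.05, adjusted p = 9.9e-21).

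Fabp3, the heart-type carrier, averaged 352 ± 14.9 at day 6, 258 ± 10.7 at day 12 and 271 ± 17.1 at day 19 in 3K (SD, n = 5). In EV Fabp3 averaged 331 ± 23.8 at day 6, 239 ± 17.5 at day 12 and 274 ± 18.9 at day 19 (SD, n = 5). It fell by day 12 in both. The step from day 12 to day 19 in EV, 0.20, was a rise past the threshold (adjusted p = 0.0079), so that Fabp3 was the only one of the 33 genes to turn direction in EV. Cd36, a membrane receptor for long-chain fatty acids, was close to the floor at day 6, with 0, 3.49, 4.16, 4.30 and 3.82 in 3K and 5.07, 2.61, 3.24, 3.75 and 1.92 in EV. At day 19 Cd36 was at 14.2, 7.71, 2.44, 13.8 and 12.4 in 3K and 11.8, 16.4, 13.0, 18.3 and 10.3 in EV, and the days overlapped in 3K and did not in EV. Its log2 fold change of 1.45 in 3K (SE 0.40) and 1.81 in EV (SE 0.40, adjusted p = 0.00022) rests on few reads, and with a pseudocount of 1 it understates the change of so low a gene.

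Markers of cell types moved with culture age as well. Of 16 astrocyte markers, none of which was at 0 in all libraries, 15 were tested and 13 rose from day 6 to day 19 in EV. Their summed normalized count ranged from 58614 to 68160 in 3K and from 67352 to 73227 in EV at day 19, and from 19021 to 22429 in 3K and from 21392 to 24200 in EV at day 6. The sum of 12 neuron markers lay between 26891 and 30807 in every group, but single markers moved in both directions. In EV, 6 of the 12 rose and 4 fell from day 6 to day 19, with log2 fold changes of -1.63 to 1.48. In the same comparison 3 of 8 oligodendrocyte lineage markers rose and 4 fell, and 2 of 2 tested meningeal and connective tissue markers rose. Of all tested genes 32.9% rose and 32.2% fell. Among 10 microglia markers only 1, Lyz2, was tested, and the sum of the 9 found was 104 to 180 at day 19 and 0 to 6.32 at day 6. Lyz2 reached 179 in a single library, while each other found marker stayed at 3.36 or less, with C1qa at 0 in all libraries. Of 5 endothelial markers none was tested, and Cldn5 was at 0 in all libraries. The part of these markers in the changes with age was not tested. In bulk RNA, fewer cells of a type and less RNA per cell cannot be told apart.

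The comparison of 3K with EV at each day asks whether these genes answer to αSyn 3K. At day 6, 0 of 33 genes were called by limma (0.225% of all tested genes were called), and edgeR and DESeq2 also called 0. At day 12 the count was 0 by all 3 tools (0.434% of all tested genes). At day 19 it was 1, lower in 3K (7.86% of all tested genes, 3.78% higher and 4.08% lower). With equal totals the 488 higher and 527 lower of all genes at day 19 became 631 higher and 376 lower. For the mean of the 3 days it was 1 as well, lower in 3K (5.88% of all tested genes, 3.22% lower). At an unadjusted p under 0.05, 4 genes were found at day 6 (7.03% of all tested genes), 7 at day 12 (8.23%) and 2 at day 19 (20.2%). The median log2 fold change of the 33 genes was -0.04 at day 6, -0.05 at day 12 and -0.01 at day 19, beside medians of all genes of -0.002, 0.002 and -0.003.

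How large a change remains possible is set by the intervals. The 95% interval of the log2 fold change lay within 0.25 of 0 for 19 of 33 genes at day 6, 16 at day 12 and 21 at day 19. It lay within 0.5 of 0 for 29 genes on each of these days. The 5 libraries of 3K and of EV did not overlap for 1 gene at day 6 (1.29% of all tested genes), 2 at day 12 (2.63%) and 0 at day 19 (6.65%).

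**Figure D3:**
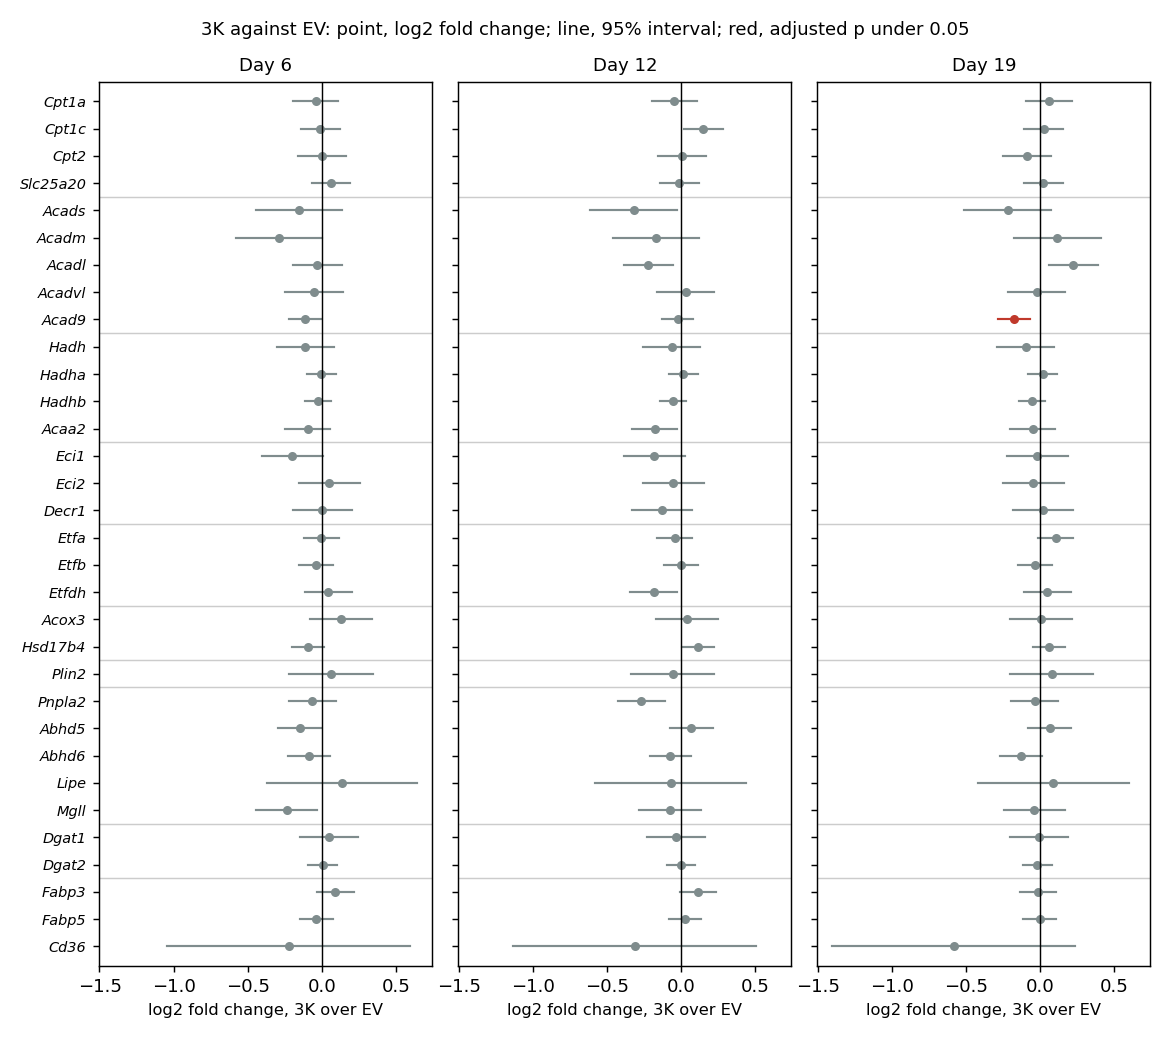
Log2 fold change of 3K over EV at days 6, 12 and 19 for 32 of the tested genes, ordered by role, with 95% intervals of the limma fit. Acad9 at day 19, in red, is the only point with an adjusted p under 0.05, and the intervals of Cd36 and Lipe are the widest shown. Echs1 is left out because its interval is far wider than the axis.

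The gene called was Acad9 (ENSRNOG00000014178), a mitochondrial flavoprotein of the acyl-CoA dehydrogenase family that is also an assembly factor of respiratory complex I. At day 19 Acad9 was at 453, 404, 453, 506 and 452 in 3K libraries and 542, 521, 513, 479 and 506 in EV libraries. All but 1 of the 3K libraries were below all EV libraries, and the highest 3K library lay inside the EV range. The means were 454 ± 36.2 in 3K and 512 ± 22.8 in EV (SD, n = 5), so that 3K over EV was -0.18 on the log2 scale (SE 0.05, 95% interval -0.28 to -0.07, limma adjusted p = 0.030, exact permutation p = 0.016, two-sided).

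At day 12 Acad9 was at 503, 458, 527, 503 and 502 in 3K and 512, 505, 512, 500.3 and 504 in EV, and at day 6 at 518, 507, 498, 542 and 594 in 3K and 569.9, 546, 573, 578 and 612 in EV. The groups overlapped at both days, with a log2 fold change of -0.02 at day 12 and -0.12 at day 6 (adjusted p = 0.65). Over the mean of the 3 days the change was -0.11 (limma adjusted p = 0.030). Neither call was firm: scaling to equal totals gave an adjusted p of 0.088 at day 19 and 0.073 for the mean, a fit to the day 19 groups alone gave 0.11, and at day 19 the adjusted p was between 0.051 and 0.11 without any 1 of EV replicates 1, 2 and 3 or of 3K replicates 1, 2, 3 and 5. The call for the mean was lost, at adjusted p-values of 0.051 to 0.056, without any 1 of EV day 6 replicate 5, EV day 19 replicate 1, 3K day 6 replicates 2 and 3, 3K day 12 replicate 2 and 3K day 19 replicate 2. At day 19, 6 of 15 tested astrocyte markers and 3 of 12 neuron markers were also lower in 3K and 0 of either were higher, with log2 fold changes of -0.52 to 0.62 over the astrocyte markers and -0.29 to 0.36 over the neuron markers. Over the mean of the 3 days 8 of 15 astrocyte markers and 1 of 12 neuron markers were lower and 0 higher. Of all tested genes 4.08% were called lower at day 19 and 3.22% over the mean of the 3 days. The part of these markers in the lower Acad9 was not tested.

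Acadl had the next smallest p at day 19, in the other direction. Its values at day 19, given above, averaged 299.7 ± 27.7 in 3K and 257 ± 18.7 in EV (SD, n = 5), a log2 fold change of 0.22 (limma adjusted p = 0.091, exact permutation p = 0.024). At day 12 Acadl was at 193, 191, 167, 155 and 188 in 3K and 188, 209, 210.0, 213 and 221 in EV, a log2 fold change of -0.22 (limma adjusted p = 0.35, exact permutation p = 0.032). The groups overlapped by few libraries at both days, and the sign was opposite. The change of the 3K effect of Acadl between day 12 and day 19, 0.44 (95% interval 0.21 to 0.68), had an adjusted p of 0.081 by limma and 0.034 by DESeq2. Without 3K day 19 replicate 4, the lowest of its group, it was 0.48 (limma adjusted p = 0.036), and the day 19 effect was 0.26 (limma adjusted p = 0.049).

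Differences between days in the 3K effect were called for 0 of 33 genes by limma in each of the 3 pairs of days. In 3K libraries the vector level rose with culture age, so these tests cannot tell the 2 apart. Between day 6 and day 19, 2 genes had an unadjusted p under 0.05 (13% of all tested genes, with 1.51% called), and edgeR and DESeq2 called 0. Between day 12 and day 19, 4 genes had an unadjusted p under 0.05 (9.43% of all tested genes, with 0.542% called), edgeR called 0 and DESeq2 called 1, Acadl. Between day 6 and day 12, 3 genes had an unadjusted p under 0.05 (4.93% of all tested genes, with 0% called), and edgeR and DESeq2 called 0.

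**Figure D4:**
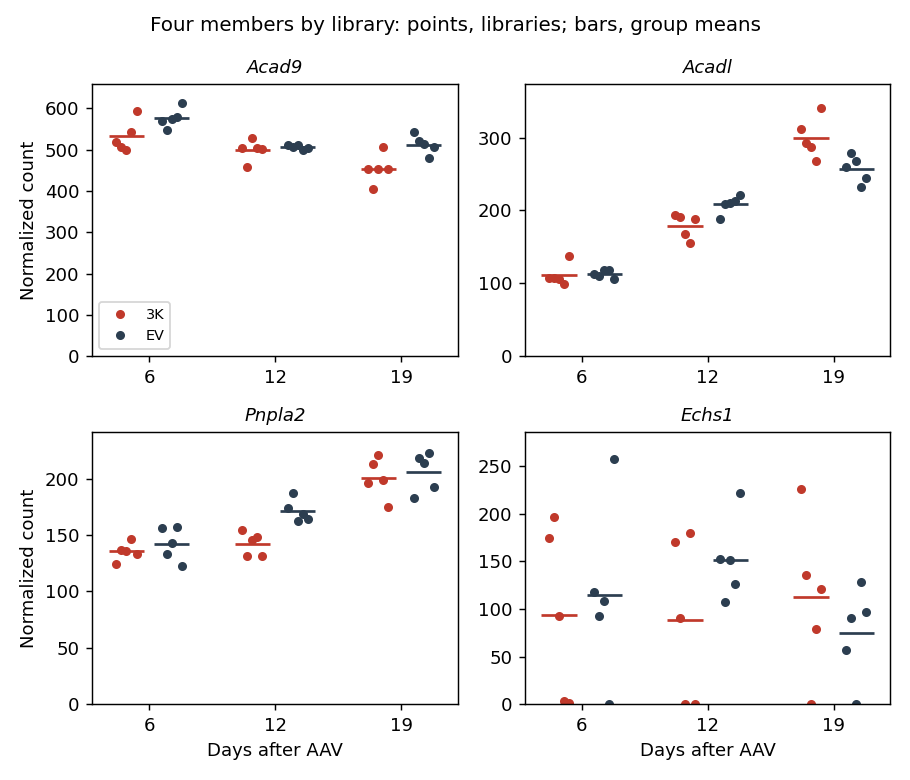
Normalized counts in every library (points) and group means (bars) for Acad9, Acadl, Pnpla2 and Echs1, by days after AAV (6, 12, 19), 3K in red left of EV in dark. The 3K points of Acad9 lie mostly below the EV points at day 19, those of Pnpla2 lie below them at day 12, and Echs1 spreads between 0 and 257 within groups.

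At day 12, Pnpla2 and Etfdh had no overlap between the groups. Pnpla2 was at 155, 132, 146, 149 and 131 in 3K and 174, 187, 163, 169 and 165 in EV, and every 3K library was below every EV library. Its log2 fold change was -0.27 (95% interval -0.43 to -0.11, limma adjusted p = 0.18, exact permutation p = 0.0079, which is the smallest that 5 against 5 libraries can give). At day 19 Pnpla2 averaged 201 in 3K and 206 in EV, with overlapping groups. Etfdh was at 254, 212, 233, 249 and 253 in 3K and 298, 256, 286, 262 and 264 in EV at day 12, with a log2 fold change of -0.18 (limma adjusted p = 0.47). Its lowest EV library was just above its highest 3K library. On the same day 2 of 15 tested astrocyte markers were lower in 3K and 0 higher, beside 0.434% of all tested genes called. Their log2 fold changes ran from -0.26 to 0.30. The summed normalized count of the 16 astrocyte markers was 31767.5 to 34073 in 3K and 36060 to 37265 in EV. Of 12 neuron markers 0 were called. The part of these markers in the lower Pnpla2 and Etfdh was not tested.

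At day 6 the only gene without overlap was Abhd5, whose values are given above, with means of 289 in 3K and 320.3 in EV and a log2 fold change of -0.15 (limma adjusted p = 0.69). Mgll was at 78.5, 72.5, 66.6, 69.8 and 67.7 in 3K and 93.7, 96.7, 71.3, 84.9 and 75.8 in EV at day 6, a log2 fold change of -0.24 with overlapping groups (limma adjusted p = 0.58). None of these differences was past the threshold over all genes.

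The hydratase Echs1 (ENSRNOG00000047565) could not be compared. In 3K it was at 174, 196, 92.6, 3.22 and 0.954 at day 6, 171, 90.6, 0, 180.2 and 0 at day 12 and 226, 135, 0, 78.6 and 121 at day 19. In EV it was at 118, 92.4, 108, 0 and 257 at day 6, 152, 108, 152, 127 and 222 at day 12 and 57.1, 90.9, 0, 129 and 97.1 at day 19. Libraries of the same group were listed at 0 and above 100, and the SE of a log2 difference between groups was 1.68. The cause of this spread was not tested, and how reads were divided among near-identical copies of the genes described here was not examined.

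Other genes of the same pathways were taken from a second list of 97, of which 94 were in the table and 71 were tested. Against EV, 2 of them were higher and 0 lower in 3K at day 19, or 2.82%, beside 7.86% of all tested genes. At day 6 and at day 12 0 were called by limma, beside 0.225% and 0.434% of all tested genes. At an unadjusted p under 0.05 there were 2 of 71 at day 6 and 4 of 71 at day 12, beside 7.03% and 8.23% of all tested genes. Ech1, a dienoyl-CoA isomerase of mitochondria and peroxisomes, averaged 623 in 3K and 551 in EV at day 19, 0.18 higher on the log2 scale (limma adjusted p = 0.037). Fabp7, the brain-type carrier of glia and their precursors, averaged 3167 in 3K and 2589 in EV at day 19, 0.29 higher (limma adjusted p = 0.037). The groups overlapped for both. Over the mean of the 3 days Ech1 was higher by 0.11 (limma adjusted p = 0.025), and Faah, which degrades the endocannabinoid anandamide, and Slc27a1, a fatty acid transport protein, were lower, with log2 fold changes of -0.33 (adjusted p = 0.049) and -0.13 (adjusted p = 0.030).

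With culture age 39 of the 71 rose and 10 fell from day 6 to day 19 in EV. The share called, 69.0%, was near the 65.1% of all tested genes (32.9% higher, 32.2% lower), and the median log2 fold change was 0.25, beside 0.001 for all genes tested. By class, 8 of 16 tested genes of mitochondrial oxidation and its carnitine supply rose and 3 fell, with a median log2 fold change of 0.19. For droplet assembly and turnover 12 of 20 tested genes rose and 2 fell. Among tested peroxisomal genes 8 of 14 rose and 0 fell, and 4 of 9 genes of uptake and carriers rose and 3 fell. Of 12 tested regulators and textbook targets of the PPARs, 7 rose and 2 fell. The genes named next were chosen after their values were seen. The receptor genes Ppard and Rxra rose by 1.12 and 1.32 on the log2 scale, and Nrip1, a corepressor of nuclear receptors, fell, with a log2 fold change of -0.65. In EV, days 6 and 19 overlapped for Ppara (6.48 to 16.6 and 6.73 to 15.2), Ppargc1a (138 to 190 and 154 to 208) and Esrra (82.1 to 128 and 68.3 to 99.1). Txnip was lower at day 19, at 108 to 148, than at day 6, at 185 to 199. Angptl4, which encodes an inhibitor of lipoprotein lipase, was at 19.1 to 25.9 at day 19 and close to the floor at day 6, at 0 to 4.36. The days did not overlap, and its log2 fold change of 3.22 (SE 0.39) rests on few reads. Acat1, a mitochondrial thiolase of ketone body and isoleucine breakdown, averaged 751 at day 19 and 1488 at day 6 in EV, a fall with a log2 fold change of -0.99.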

How the data were processed

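Per the labels and the study's methods, full-length cDNA was made with the SMART-Seq v4 kit and libraries with the Nextera XT kit, with alignment by STAR 2.5.2b and counting per gene by RSEM 1.2.31 on Rnor_6.0. The authors deposited signal values, namely these read counts after division by the size factor that DESeq2 gave each library. The heading of the table names a PFF model and says that all samples were normalized together, so the factors, 0.801 to 1.18, may have been set with libraries not analysed here. In every library 100% of values were whole reads within 0.01 of a read, and whole reads were recovered for the count tools. Depth was 4747019 to 7035869 reads, which limits genes with few reads, and reads come from amplified cDNA, so intervals on single libraries would cover counting error only.

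A gene was tested when 5 or more libraries reached a normalized count of 10, which 12911 of 20634 genes with any read did, with limma 3.58.1 (R 4.3.3, trend, 6 group means, two-sided, pseudocount 1). Single values were also tested by exact permutation over the 252 labelings of 5 against 5, two-sided. Members and lists were chosen with earlier results of these data known. Values of every library are given for members called in 3K against EV and for others that the text turns on, the latter chosen after their values were seen. Fold changes are given for the 5 members with the largest change in each direction with age, and for the carnitine shuttle and the lipases, and outside this rule for most other members, by role. Alternatives were edgeR 4.0.16 and DESeq2 1.42.0 on recovered reads, pseudocounts of 0.5 and 5, no filter, a minimum of 50, equal totals, equal upper quartiles, only the groups compared, the replicate block and leaving out each library. Promoters are from RefSeq on GRCr8, and 27 of 35 symbols matched.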

Additional observations from a re-analysis of the deposited data

Results flagged for a closer look

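In 6 of 96 groups of 5 libraries (16 genes named in the text, each by treatment and day) a single library lay far from the other 4, by Dixon's criterion, which chance alone passes in about 1 group in 20. Cd36 in 3K day 6 replicate 1 was at 0, with the others at 3.49 to 4.30. Acadl in 3K day 6 replicate 5 was at 137, with the others at 98.8 to 107. Cpt2 in 3K day 19 replicate 4 was at 150.3, with the others at 182 to 189. Plin2 in EV day 12 replicate 3 was at 43.8, with the others at 59.3 to 61.9. Slc25a20 in EV day 12 replicate 4 was at 525, with the others at 446 to 467. Abhd6 in EV day 6 replicate 2 was at 232, with the others at 279 to 297.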

How the results depend on the processing

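The counts of genes that changed with culture age in EV stayed within 1.5 times under every alternative and with any library left out: 29 to 31 called from day 6 to day 19, 23 from day 6 to day 12 and 19 to 22 from day 12 to day 19 over left-out libraries. For 3K against EV at day 19, equal totals and a fit to the compared groups alone each gave 0 calls, and left-out libraries gave 0 to 2. For the mean of the 3 days, equal totals gave 0 and left-out libraries 0 to 2, where the added genes were Abhd6 without EV day 6 replicate 2 and Acads without 3K day 6 replicate 1. The log2 fold change of Acads was then -0.28 (limma adjusted p = 0.022). Over all libraries it was -0.23 for the mean, -0.32 at day 12 and -0.22 at day 19, none past the threshold. Its 3K and EV values overlapped on each day, at 30.1 to 55.1 and 35.6 to 48.1 at day 6, 43.3 to 59.1 and 49.4 to 72.8 at day 12, and 54.8 to 85.1 and 75.4 to 94.3 at day 19. For the difference of the 3K effect between day 12 and day 19, DESeq2 gave 1 call, and left-out libraries 0 to 1. The log2 fold change of Acad9 at day 19 ranged over left-out libraries from -0.22 to -0.14. In the fit to the EV day 6 and day 19 groups alone Slc25a20 was called (0.14, adjusted p = 0.038), as it was without EV day 6 replicate 5 (0.16, adjusted p = 0.037). The cause of these shifts was not tested. Equal totals moved the share of higher genes among all called genes to 62.7% at day 19, against 48.1% without that scaling. The replicate numbers were not used as pairs: over 15 pairs of a 3K and an EV library of the same day and number, correlations of deviations ran from -0.12 to 0.19. The 3 above 0.1 (0.145, 0.161 and 0.192) were all at day 19, where 3 of 5 libraries correlated best with their own number. With the replicate block Acad9 had an adjusted p of 0.026 and no other member was called in 3K against EV. Depth limits the low genes Cd36, Lipe and Plin3.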
